A study of Mus musculus with 15 samples.

Results

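The organic ion and drug transporters are the carriers and pumps that move drugs, urate, bile acids, steroid conjugates and other charged organic solutes across cell membranes. The protein-coding genes counted here were those whose symbol begins with Slc22a, Slc47a, Slco, Abcb, Abcc or Abcg and a number, which gave 67 of the 46078 genes in the count table (21596 of them protein-coding). They fall into 11 classes by role, of which the organic anion transporting polypeptides (14 genes) and the organic anion exchangers (13 genes) are the largest. Podocytes, the filtration cells of the glomerulus, are not the main known site of these genes in the kidney. The proximal tubule is.

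In the proximal tubule, organic anion transporters of the SLC22 family take anions from the blood in exchange for a dicarboxylate, and organic cation transporters take up cations along the membrane voltage. MATE proteins (Slc47a) and the ATP-driven pumps of the ABC families then pass the solutes into the urine. Some ABC members have other work, such as cholesterol efflux from macrophages or peptide and iron-sulfur traffic in lysosomes and mitochondria.

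Bulk RNA-seq was made from podocyte fractions of male C57BL/6J mice, in which digested kidney cortex was labeled with antibodies against nephrin and held on a magnetic column. Young mice were 4 months old and received no injection. Both aged groups were 21 months old and received weekly intraperitoneal antibody at 12 mg/kg for 8 weeks, either the isotype control IgG2A (clone 2A3, called aged IgG2a here) or the anti–PD-1 antibody RMP1-14 (called aged aPD1ab, with 47 days in the sample titles). Age and injection changed together between young and aged mice, so their parts cannot be told apart in those comparisons. The libraries used were 5 young, 4 aged IgG2a and 4 aged aPD1ab of the 5 samples listed for each group.

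The count columns carry numbers that are not those of the sample labels, and the group of each column was read from a principal component plot of the study that prints the column numbers in the colors of the groups. Every group value below rests on that reading, and replicate numbers only name a library. Library totals ran from 19912969 to 32717100 counts, and 3 counts stood for 0.0843 to 0.207 CPM (counts per 1000000 of the TMM-adjusted library size). These limits cover counting error only, and p-values below measure the spread between these libraries. All 10 podocyte markers and all 15 proximal tubule markers on lists written for this work were counted in every library, so the fractions held RNA of both cell types. The summed proximal tubule markers were at 13675 to 20778 CPM in the young libraries, at 2092, 3215 and 2662 CPM in aged IgG2a replicates 2 to 4, at 10422 CPM in aged IgG2a replicate 1 and at 10466 to 30030.3 CPM with aPD1ab. The summed podocyte markers were at 896 to 1450.1, 536 to 730.2 and 277 to 877 CPM in the same 3 groups. Aged IgG2a replicate 1 stood apart from its group, so the members called in each comparison with that group are counted with and without it. This library was singled out after its values were seen. Leaving it out narrows the spread of its group for genes of the tubule. The p-values and counts without it may therefore be too favorable and serve as a description. Values of single genes are with all libraries unless stated. In bulk RNA, fewer cells of a type and less RNA per cell cannot be told apart.

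Sequences are shown for the neighboring genes on which the results turn. Slc22a6 (OAT1) and Slc22a8 (OAT3) lie side by side on chromosome 19, and Slco1a1 and Slco1a6 lie in 1 cluster on chromosome 6. Below, each promoter runs from 250 bases before to 50 bases after the start of transcription, from RefSeq on GRCm38.p6. Slc22a6 is at chr19:8617746-8618045 and Slc22a8 at chr19:8592932-8593231, both on the plus strand, while Slco1a1 is at chr6:141946913-141947212 and Slco1a6 at chr6:142186100-142186399, both on the minus strand. A capital marks the first transcribed base.
Slc22a6: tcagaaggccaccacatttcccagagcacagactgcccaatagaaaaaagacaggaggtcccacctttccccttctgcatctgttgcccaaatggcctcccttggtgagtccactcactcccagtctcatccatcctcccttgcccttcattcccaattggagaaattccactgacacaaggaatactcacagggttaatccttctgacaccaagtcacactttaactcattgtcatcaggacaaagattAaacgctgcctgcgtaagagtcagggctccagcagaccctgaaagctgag
Slc22a8: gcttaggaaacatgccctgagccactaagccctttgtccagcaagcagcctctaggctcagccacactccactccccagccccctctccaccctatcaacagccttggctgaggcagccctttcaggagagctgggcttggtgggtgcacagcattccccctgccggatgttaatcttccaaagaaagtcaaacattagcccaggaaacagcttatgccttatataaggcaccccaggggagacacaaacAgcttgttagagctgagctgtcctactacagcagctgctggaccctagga
Slco1a1: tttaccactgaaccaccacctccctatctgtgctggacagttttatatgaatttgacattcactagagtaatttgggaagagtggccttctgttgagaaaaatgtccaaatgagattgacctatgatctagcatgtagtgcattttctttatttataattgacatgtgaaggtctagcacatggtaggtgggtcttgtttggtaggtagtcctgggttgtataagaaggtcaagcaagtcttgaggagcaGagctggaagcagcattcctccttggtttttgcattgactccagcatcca
Slco1a6: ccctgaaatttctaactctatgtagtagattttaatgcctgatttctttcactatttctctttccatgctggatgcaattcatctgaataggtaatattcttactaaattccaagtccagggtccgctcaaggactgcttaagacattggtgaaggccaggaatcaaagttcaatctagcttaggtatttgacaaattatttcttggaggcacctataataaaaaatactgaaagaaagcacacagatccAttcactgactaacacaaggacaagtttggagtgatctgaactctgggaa

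A RefSeq promoter was found for 53 of the 67 genes. On either strand, the HNF4 motif CAAAGTCCA stood in 0 of these 53 and in 0.6% of the 27025 genes with a promoter, which says only that these letters are not in these windows.

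Several members are near copies, so their reads may have been split or shared in counting. Slc22a28 and Slc22a30, mouse organic anion transporters of the chromosome 19 cluster, differ at 20 of 1656 aligned coding bases (98.8% identity). Coding bases 640 to 729 of their GENCODE M21 transcripts are shown to make the likeness visible, with the 4 differing bases in capitals.
Slc22a28: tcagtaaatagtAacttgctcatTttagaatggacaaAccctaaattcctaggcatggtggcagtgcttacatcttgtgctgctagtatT
Slc22a30: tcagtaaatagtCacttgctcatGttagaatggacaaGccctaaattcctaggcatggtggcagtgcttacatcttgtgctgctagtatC

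Slc22a27 and Slc22a29 shared 97.3% of their coding bases, Slc22a21 and Slc22a5 shared 90.5%, and Abcb1a and Abcb1b shared 88.2%. Values of Slc22a28, Slc22a30, Slc22a27 and Slc22a29 are therefore uncertain one by one. Slco1a1 and Slco1a6 shared 83.9%. Exons of Slc22a12 overlap those of Nrxn2 on the other strand over 30.1% of their length, and exons of Abcb6 overlap Gm29253 on the same strand over 55.2%. The strand setting of the counting is not given in the sources used here.

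Of the 67 genes, 49 passed the filter on low counts in at least 1 comparison and 18 passed in none. The 18 never went above 0.899 CPM (Slc22a3). Slc22a16, Slc22a20, Slco6c1 and Slco6d1 were at 0 in every library, which allows up to 3 counts in each. Slc22a27, Slco1a5, Abcb11 and Abcc12 never passed 3 counts. Slco1b2 and Abcb11, the uptake carrier and the bile salt pump of hepatocytes, were at most at 4 and 2 counts.

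By level per length (CPM per kilobase of exon), Slc22a12 (URAT1, the urate exchanger) led the young libraries at 162 ± 27.3 (SD, n = 5). Slc22a6 followed at 108 ± 17.5, and Slc22a18 (90.6 ± 16.1), Slc47a1 (MATE1, 77.1 ± 13.1) and Slc22a8 (74.1 ± 12.1) were also among the highest. Slc47a1 and Slc22a8 differed by less than their SD. The 67 genes together summed to between 2930.3 and 4176 CPM in the young libraries. They summed to 2451 CPM in aged IgG2a replicate 1 and to 1214, 1307 and 1234 CPM in replicates 2 to 4. With aPD1ab the sums were 2422, 5636, 2297 and 2688 CPM, so replicate 2 was above every young library and the other 3 were below the lowest.

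Whether these genes differ with age was asked by comparing aged IgG2a with young mice. Of the 48 members tested, 23 were lower and 5 higher in aged IgG2a mice (edgeR, adjusted p under 0.05), where 8.38% of all 15953 genes tested were lower and 9.05% higher. Without aged IgG2a replicate 1, 33 of 49 members were lower and 7 higher, against 23.5% and 22.1% of 16216 genes. The median log2 fold change of the members was -0.97 with all libraries and -1.13 without that library, against 0.04 and -0.01 over all genes. Scaled to the summed proximal tubule markers instead of to all genes, the median of the members turned to 1.08 while that of all genes moved to 2.32, and 3 members were lower and 23 higher, against 0.119% and 93.4% of all genes. Members of the tubule classes and the tubule markers moved together, and the part of tubule RNA in these calls was not tested beyond this scaling.

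The organic anion exchangers were the class with the lowest median log2 fold change in aged IgG2a against young mice. With all libraries 8 of 11 tested genes fell, and all 11 fell without replicate 1. Scaled to tubule markers, however, 2 of 11 were lower and the median moved from -2.16 to -0.46. Slc22a6 (ENSMUSG00000024650, chromosome 19, 8618039 to 8628299), the main basolateral exchanger of para-aminohippurate and many drugs, was at 407, 443, 538, 348 and 415 CPM in the young libraries. In aged IgG2a replicates 1 to 4 it was at 237, 38.1, 57.8 and 41.4 CPM. All 4 were below every young library. The log2 fold change was -2.16 (standard error 0.53, adjusted p = 0.0262), and without replicate 1 it was -3.18 (standard error 0.19, adjusted p = 3.8e-06).

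Slc22a8 (ENSMUSG00000063796, chromosome 19, 8591254 to 8611835), which takes up larger and more hydrophobic anions, was at 285, 306, 355, 224 and 279 CPM in young mice. It was at 248, 51.2, 73.3 and 58.4 CPM in aged IgG2a mice, so replicate 1 lay among the young libraries. Its log2 fold change was -1.38 (standard error 0.44, adjusted p = 0.0547), which did not pass. Without replicate 1 it was -2.20 (standard error 0.17, adjusted p = 8.0e-06). Slc22a12 (ENSMUSG00000061742, chromosome 19, 6535845 to 6543032) was at 363, 402, 445, 282 and 342 CPM in young and at 221, 39.9, 50.7 and 49.3 CPM in aged IgG2a libraries. It fell by 1.98 on the log2 scale (standard error 0.49, adjusted p = 0.0276).

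Slc22a7 (OAT2), a carrier of cyclic nucleotides and other anions, showed a larger drop at a lower level. It was at 13.4, 21.4, 7.42, 7.44 and 12.9 CPM in young mice and at 2.96, 0.49, 1.08 and 0.553 CPM in aged IgG2a mice. The groups did not overlap, and the log2 fold change was -3.16 (standard error 0.55, adjusted p = 0.0104). Slc22a19 followed the same direction, at -3.18 (standard error 0.58, adjusted p = 0.0121). The others that passed with all libraries were Slc22a28, Slc22a30, Slc22a22 and Slc22a13, at log2 fold changes from -1.89 to -3.05.

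Among the cation carriers, Slc47a1 and Slc22a2 were lower in aged IgG2a mice, although scaled to tubule markers neither passed. Slc47a1, which passes cations into the urine in exchange for protons, was at 247, 275, 326, 204 and 252 CPM in young and at 159.8, 31.5, 47.3 and 36.9 CPM in aged IgG2a libraries. It fell by 1.87 on the log2 scale (standard error 0.45, adjusted p = 0.0256). Slc22a2 (OCT2), the basolateral uptake carrier, was at 94.0, 109, 139, 88.5 and 108 CPM in young and at 64.0, 9.11, 17.3 and 8.63 CPM in aged IgG2a libraries, a log2 fold change of -2.07 (standard error 0.55, adjusted p = 0.0335).

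The carnitine carrier Slc22a5 (OCTN2) fell by 1.29 on the log2 scale (standard error 0.28, adjusted p = 0.0199). Its paralogs Slc22a4 and Slc22a21 did not pass, at log2 fold changes of -0.58 and 0.25. Without aged IgG2a replicate 1, Slc22a4 passed (-0.84, adjusted p = 0.00431) and Slc22a21 did not. Slc22a18 fell by 1.57, while Slc22a23 (-0.65), Slc22a17 (0.03) and Slc22a15 (0.40) did not pass. Without that replicate Slc22a23 passed (-1.11, adjusted p = 5.0e-04), and Slc22a17 and Slc22a15 did not.

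Among the organic anion transporting polypeptides, 5 of 8 tested genes fell and none rose with all libraries, although scaled to tubule markers 1 was lower and 4 were higher. That scaling called 0.119% of all genes lower and 93.4% higher. Slco1a1 (ENSMUSG00000041698, chromosome 6, 141907282 to 141946962), an uptake carrier of steroid conjugates and bile acids known to be higher in male than in female mouse kidney, had the largest drop of the class. It was at 101, 81.1, 159, 148 and 119 CPM in young mice and at 29.4, 4.41, 7.48 and 6.01 CPM in aged IgG2a mice. All 4 aged libraries lay below every young one, with a log2 fold change of -3.30 (standard error 0.55, adjusted p = 0.00918). Slco1a6 (ENSMUSG00000079262, chromosome 6, 142085761 to 142208521) was at 88.1, 100.2, 149, 95.7 and 88.3 CPM in young and at 50, 10.7, 13.8 and 15.2 CPM in aged IgG2a libraries. It fell by 2.16 on the log2 scale (standard error 0.43, adjusted p = 0.0162). Slco4c1 (-1.67), Slco3a1 (-0.76) and Slco2a1, the prostaglandin carrier (-0.45), also fell. Scaled to tubule markers, these genes turned to 0.51, 1.31 and 1.80, and Slco3a1 and Slco2a1 were called higher.

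Slco2b1, which also carries steroid sulfates, went the other way. It was at 71.6, 59.2, 49.2, 58.4 and 69.3 CPM in young mice and at 44.6, 172, 151 and 117 CPM in aged IgG2a mice. Replicates 2 to 4 were above every young library and replicate 1 was below them all. The log2 fold change was 1.05 (standard error 0.32, adjusted p = 0.0507) and did not pass with all libraries, and was 1.31 (standard error 0.15, adjusted p = 6.5e-05) without replicate 1.

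**Figure D1:**
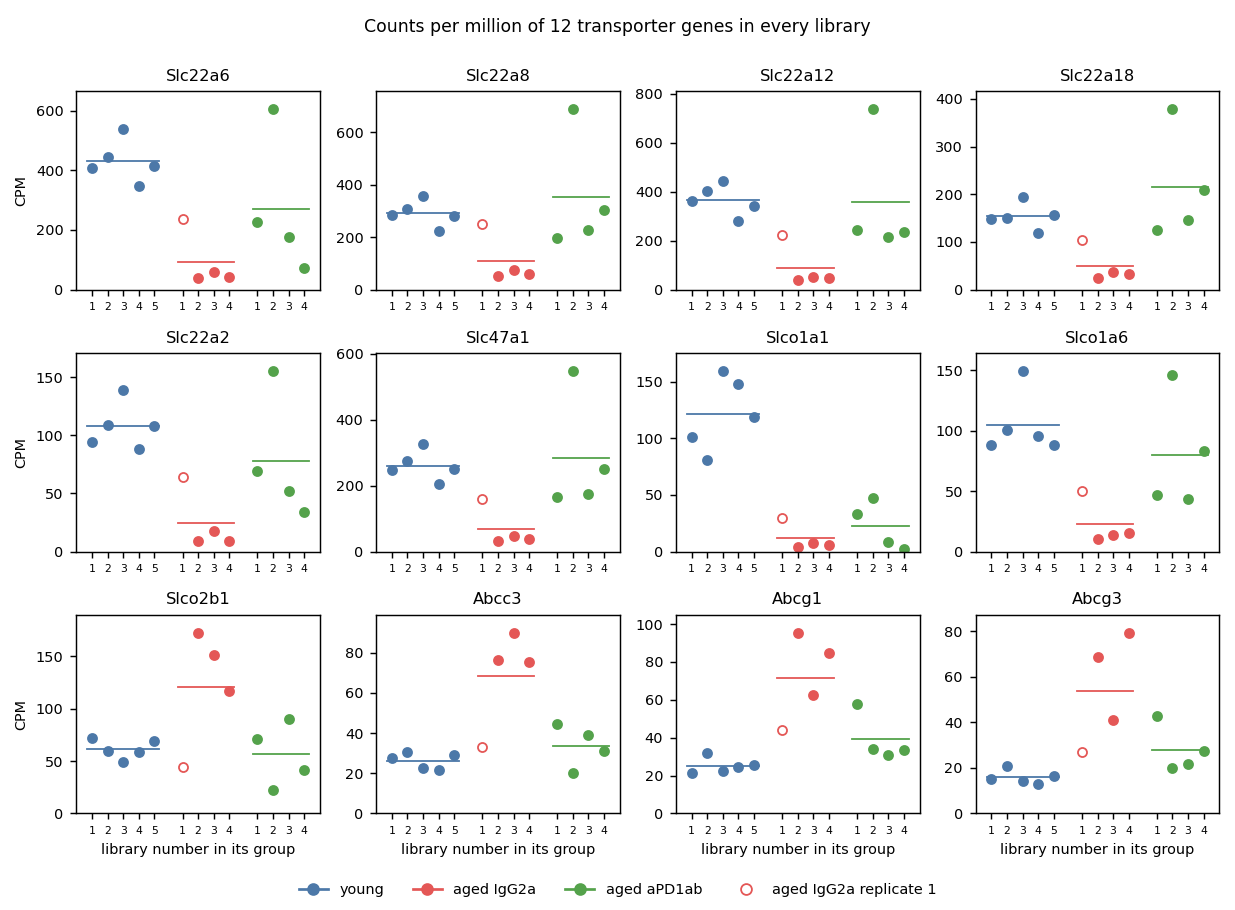
Each point is the CPM (y axis from 0, linear) of 1 library (x axis: number within its group) for 12 transporter genes, and the line is the group mean. Aged IgG2a replicates 2 to 4 lie below all young libraries for Slc22a6 to Slco1a6 and above them for Slco2b1, Abcc3, Abcg1 and Abcg3; aged IgG2a replicate 1 is drawn open. Scaled to tubule markers, the log2 fold change in aged IgG2a against young mice turned for Slc22a8 (0.44) and Slc22a18 (0.33). Neither was called, and the other genes drawn kept their sign.

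Of the 7 tested ABCC exporters of conjugates, 2 fell and 2 rose. Abcc2 (MRP2), the pump for conjugates in the apical tubule membrane, fell from 149.8 ± 32.7 CPM (SD, n = 5) to 42.1 ± 37.4 CPM (SD, n = 4), a log2 fold change of -1.78 (standard error 0.46, adjusted p = 0.0309) that was 0.03 when scaled to tubule markers. Abcc6, mutated in pseudoxanthoma elasticum, fell by 1.34 on the log2 scale (adjusted p = 0.0493). It was 0.50 higher, and not called, when scaled to tubule markers. Abcc3 (MRP3), the basolateral exporter of glucuronides, rose. It was at 27.4, 30.5, 22.6, 21.5 and 29.2 CPM in young and at 32.9, 76.3, 89.7 and 75.3 CPM in aged IgG2a libraries, with no overlap and a log2 fold change of 1.46 (standard error 0.26, adjusted p = 0.0110). Abcc1 (MRP1) rose by 0.31 on the log2 scale (standard error 0.09, adjusted p = 0.0371). Abcc5, Abcc4 and Abcc10 did not pass, at 0.06, -0.08 and -0.25. Without aged IgG2a replicate 1, Abcc4 (-0.30, adjusted p = 0.0434) and Abcc10 (-0.37, adjusted p = 0.0462) were lower, and Abcc5 did not pass.

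In the ABCG family, Abcg2 (BCRP), an apical pump of urate and drugs, fell by 1.51 on the log2 scale (standard error 0.36, adjusted p = 0.0242), from 192 ± 38.5 to 65.1 ± 44.4 CPM. It was 0.45 higher, and not called, when scaled to tubule markers. Abcg1, which exports cholesterol from macrophages to HDL, was at 21.6, 32.0, 22.3, 24.5 and 25.7 CPM in young and at 44.3, 95.1, 62.5 and 84.5 CPM in aged IgG2a libraries. It rose by 1.57 (standard error 0.22, adjusted p = 0.00513) and had the smallest adjusted p of all members. Abcg3 rose by 1.82 on the log2 scale (standard error 0.30, adjusted p = 0.00878), from 16 ± 3.05 to 53.8 ± 24.2 CPM.

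In aged IgG2a replicates 2 to 4, the summed macrophage markers were above every young library, as were Abcg1, Abcg3, Abcc3 and Slco2b1. The marker sum was at 1877 to 3529 CPM in young libraries, 2953 CPM in aged IgG2a replicate 1, and 9024, 8643 and 7395 CPM in replicates 2 to 4. In replicate 1 the sum lay within the young range, whereas Abcg1, Abcg3 and Abcc3 were above every young library and Slco2b1 was below. All 9 markers of that list were counted in every library, and 8 of the 9 rose in aged IgG2a mice. The summed B and plasma cell markers were at 76.8 to 168 CPM in young and at 321 to 958 CPM in aged IgG2a libraries. The part of either list in the changes of the transporter genes was not tested.

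The P-glycoprotein genes Abcb1a and Abcb1b, multidrug pumps of the cell surface, did not fall. Abcb1b rose by 0.76 on the log2 scale (standard error 0.16, adjusted p = 0.0199), from 11.6 ± 1.8 CPM to 18.6 ± 3.86 CPM. Abcb1a (0.54, adjusted p = 0.0753) and the phospholipid flippase Abcb4 (1.1, adjusted p = 0.104) did not pass. Without aged IgG2a replicate 1, Abcb4 was higher (1.35, adjusted p = 0.022) and Abcb1a did not pass (adjusted p = 0.0914). Among the ABCB members of mitochondria and lysosomes, Abcb8, Abcb10, Abcb9 and Abcb6 did not pass with all libraries, at -0.50, -0.14, -0.19 and -1.24. Without that library Abcb8 (-0.74, adjusted p = 1.9e-04), Abcb9 (-0.44, 0.025) and Abcb6 (-1.76, 0.0323) were lower, and Abcb10 (0.0535) did not pass. Abcc9, the sulfonylurea receptor subunit of vascular potassium channels, fell by 1.29 on the log2 scale (standard error 0.39, adjusted p = 0.0486).

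Leaving out any 1 of the 9 libraries changed many of these calls, since 4 of the 23 lowered and 3 of the 5 raised genes passed in every such fit. They were Slco1a1, Slc22a7, Slc22a19 and Slco4c1, and Abcg1, Abcg3 and Abcc3. Of these, Slco4c1 turned to 0.51 and was not called when scaled to tubule markers. The number of lowered members was 11, 12, 6, 13 and 14 without young replicates 1 to 5, and 6, 5 and 7 without aged IgG2a replicates 2, 3 and 4, against 1.8% to 4.82% of all genes in these 8 fits. In 1 edgeR fit of all 3 groups, Abcc1 (adjusted p = 0.142), Abcc6 (0.0753), Abcc9 (0.0753) and Slco3a1 (0.0713) no longer passed. With no filter on low counts the same was so for Abcc1 (0.131), Abcc6 (0.0725), Abcc9 (0.0531), Slco3a1 (0.0523), Abcc2 (0.0562), Slc22a2 (0.0639) and Slc22a30 (0.0504).

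The effect of the antibody was asked by comparing aged aPD1ab with aged IgG2a mice. With all 8 libraries no transporter gene of 47 tested passed the edgeR test in either direction, and 0% of the 15530 genes tested were higher and 0% lower. At an unadjusted p under 0.05 there were 26 members and 4341 genes in all, and 36 members had a positive and 11 a negative fold change. DESeq2 called 14 members higher and 3 lower of 45 on the same libraries, against 8.61% and 5.59% of the 15011 genes to which it gave an adjusted p. Without aged IgG2a replicate 1, 25 of 47 members were higher and 7 lower with aPD1ab, against 17.1% higher and 13.2% lower of 15770 genes. The median log2 fold change of the members was 0.76 with all libraries and 1.01 without that library, against -0.01 and 0.01 for all genes, and it was -1.30 when scaled to tubule markers, which moved the median of all genes to -2.10. In that scaling 0 members were higher and 23 lower, against 0.00644% and 87.1% of all genes.

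With aPD1ab, Slc22a6 was at 228, 604, 175 and 71.0 CPM, Slc22a8 at 195, 686, 226 and 304 CPM and Slc22a12 at 245, 736, 216 and 236 CPM. For all 3 genes each aPD1ab library was above aged IgG2a replicates 2 to 4, and 1 to 3 of the 4 lay below aged IgG2a replicate 1. The log2 fold changes were 1.55 for Slc22a6 (adjusted p = 0.220), 1.73 for Slc22a8 (adjusted p = 0.127) and 2.01 for Slc22a12 (adjusted p = 0.121). Without aged IgG2a replicate 1 they were 2.55 (adjusted p = 0.0261), 2.53 (adjusted p = 0.0100) and 2.93 (adjusted p = 0.00820). Of the 11 tested exchangers, 10 passed in that fit and Slc22a13 did not (3.26, adjusted p = 0.0565), while none passed when scaled to tubule markers.

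Slc47a1 was at 165, 547, 176 and 251 CPM with aPD1ab, above all 4 aged IgG2a libraries. Its log2 fold change was 2.07 (standard error 0.61, adjusted p = 0.110). Slc22a18, at 125, 378, 146 and 208 CPM, was likewise above its 4 aged IgG2a libraries (105, 24, 37.6 and 33.4 CPM). The log2 fold change was 2.11 (standard error 0.53, adjusted p = 0.109), and without aged IgG2a replicate 1 it was 2.75 (standard error 0.43, adjusted p = 0.00757). Abcc2 (2.03, adjusted p = 0.120) and Abcg2 (1.65, adjusted p = 0.110) did not pass with all libraries, and passed without that library, at 2.85 and 2.23.

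Among genes lower with aPD1ab, Abcc3 was at 44.3, 19.9, 39.0 and 31.3 CPM. These values were all below aged IgG2a replicates 2 to 4, and replicate 1 lay among them. The log2 fold change was -1.05 (standard error 0.34, adjusted p = 0.116), and -1.29 (standard error 0.23, adjusted p = 0.00884) without replicate 1. Abcg1, at 57.8, 34.2, 31.0 and 33.7 CPM, changed by -0.89 (adjusted p = 0.117) and by -1.07 without replicate 1 (adjusted p = 0.0153). Slco2b1 was at 71.3, 22.8, 90.2 and 41.5 CPM, and Abcc1 changed by -0.42 with no overlap of the groups (adjusted p = 0.115). The macrophage marker sum was at 4167, 2268, 5139 and 3564 CPM in these libraries.

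Slco1a1 and Slco1a6 both had a positive fold change with aPD1ab against aged IgG2a mice, and only Slco1a6 passed, without aged IgG2a replicate 1. With aPD1ab Slco1a1 was at 32.9, 47.0, 8.28 and 2.02 CPM, and Slco1a6 at 46.4, 146, 43.6 and 83.0 CPM. Against aged IgG2a mice without replicate 1, the log2 fold change was 1.91 for Slco1a1 (standard error 0.92, adjusted p = 0.147) and 2.58 for Slco1a6 (standard error 0.47, adjusted p = 0.00896). The difference between these changes was not tested.

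**Figure D2:**
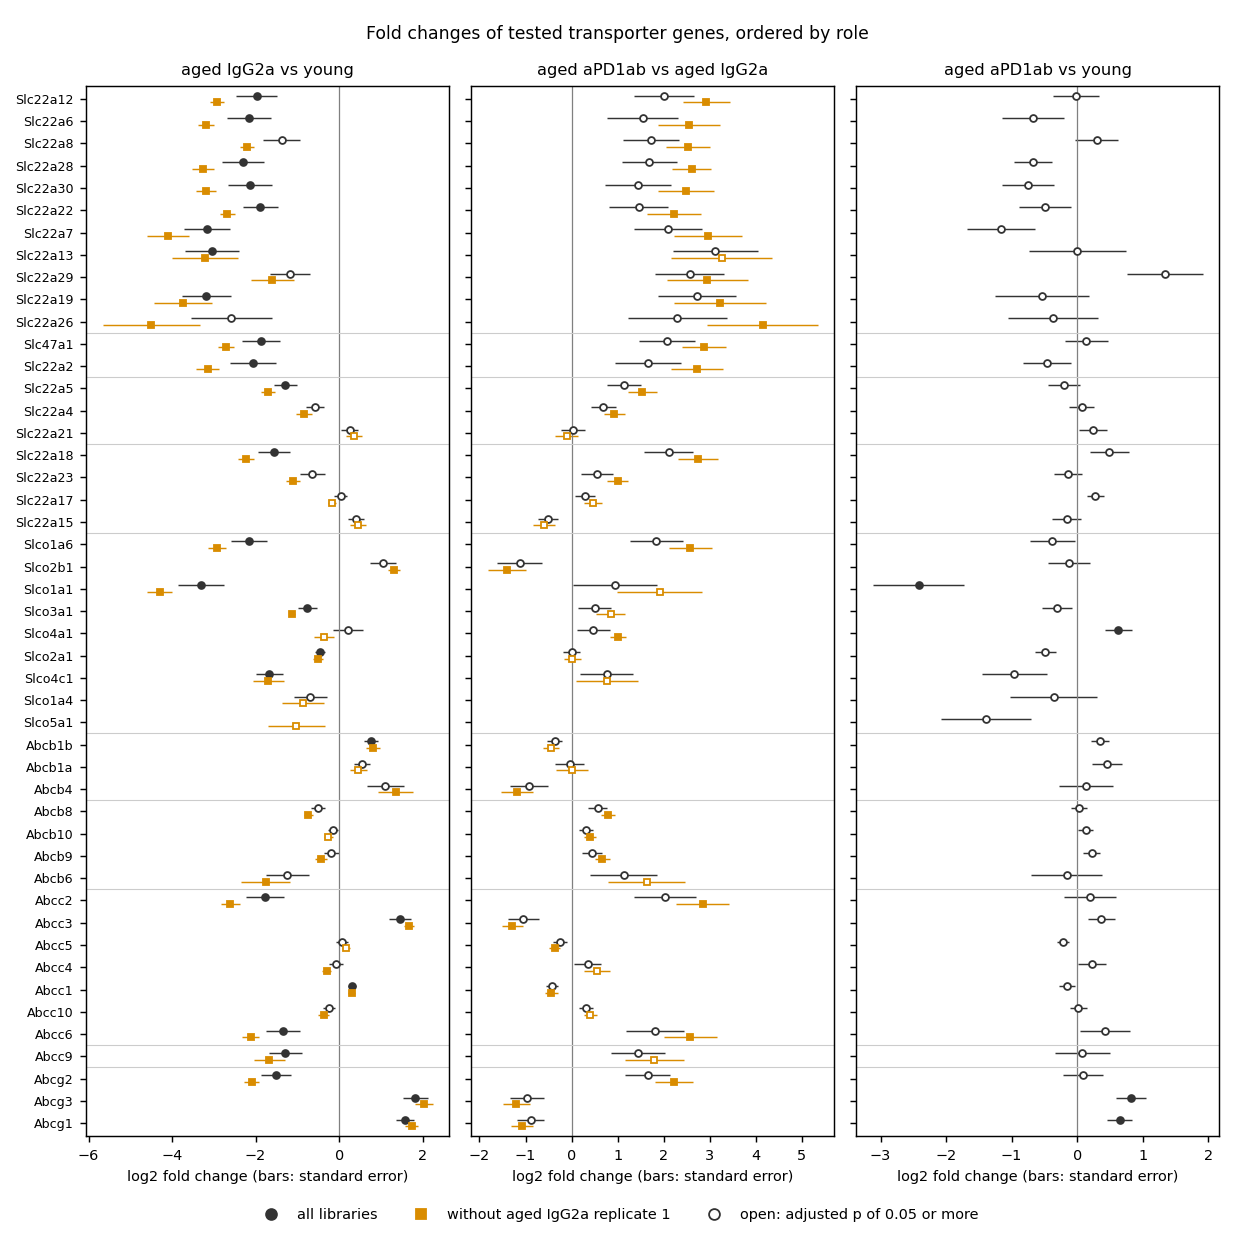
Points give the edgeR log2 fold change (x axis) with its standard error for tested transporter genes (rows, grouped by role) in 3 comparisons, with all libraries in black and without aged IgG2a replicate 1 in orange. Open points have an adjusted p of 0.05 or more; in the middle panel all black points are open. Scaled to tubule markers, the median of all members would move from -0.97 to 1.08 in the left panel and from 0.76 to -1.30 in the middle one.

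Aged aPD1ab mice were also set against young mice, which shares libraries with both comparisons above. Of 49 members tested, 3 were higher (Abcg1, Abcg3 and Slco4a1) and 2 lower (Slco1a1 among them), shares under those of all 15986 genes, of which 12.4% were higher and 9.97% lower. The median log2 fold change was 0.00 for the members and 0.02 for all genes. Slco1a1 lay below every young library in all 4 aPD1ab mice, at a log2 fold change of -2.42 (standard error 0.70, adjusted p = 0.0326). With no filter on low counts it did not pass (adjusted p = 0.114).

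Slco4a1, a carrier of thyroid hormone, was at 16.7, 20.3, 22.0, 18.1 and 10.4 CPM in young and at 32.1, 25.6, 26.5 and 23.3 CPM in aPD1ab libraries, a log2 fold change of 0.63 (standard error 0.20, adjusted p = 0.0432). Abcg3 (0.82, adjusted p = 0.0276) and Abcg1 (0.65, adjusted p = 0.0366) were higher with overlapping ranges. In 1 edgeR fit of all 3 groups none of these 3 passed (adjusted p = 0.206 for Slco4a1, 0.0799 for Abcg3 and 0.0744 for Abcg1), and Slco4a1 did not pass with voom (adjusted p = 0.0545). No member passed when scaled to tubule markers, where 1.13% of all genes were higher and 0.288% lower.

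This comparison turned on single libraries. Aged aPD1ab replicate 2 held the most tubule marker RNA, and without it 11 of 49 members were lower and 4 higher, against 10.5% and 12.1% of all 16288 genes. Among the lower ones were Slc22a6 (-1.44), Slc22a2 (-1.04), Slc22a12 (-0.65), Slc22a22 (-1.17), Slc22a28 (-1.11), Slc22a30 (-1.45), Slco1a6 (-0.84), Slco3a1 (-0.59), Slco4c1 (-1.67) and Slco1a1 (-3.07). Slc22a8 and Slc47a1 were not among them. No member was higher without aged aPD1ab replicate 4 or without young replicate 1 or 4, and 1 was without young replicate 3 or 5. In these fits 8.3% to 9.8% of all genes were higher. The lowered members numbered 1 without young replicate 1, 3, 4 or 5 or aged aPD1ab replicate 3, against 6.68% to 7.96% of all genes.

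Levels within a library are free of the scaling between libraries. Per 1000 counts of the 15 tubule markers, Slco1a1 was at 6.46, 4.70, 7.64, 10.9 and 6.99 in young mice. It was at 2.82, 2.11, 2.33 and 2.26 in aged IgG2a mice and at 3.15, 1.57, 0.700 and 0.147 with aPD1ab. All 8 aged libraries were below every young one. In the fit scaled to these markers, Slco1a1 was still lower in aged IgG2a mice (log2 fold change -1.62, standard error 0.45, adjusted p = 5.9e-04), as were Slc22a7 (-1.49, adjusted p = 0.00634) and Slc22a19 (-1.27, adjusted p = 0.0332). With aPD1ab against young mice, Slco1a1 changed by -2.40 in that fit (adjusted p = 0.173).

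On the same scale the OAT genes parted. Slc22a6 was at 24.5 to 26.0 per 1000 marker counts in young mice, at 15.6 to 22.7 in aged IgG2a mice and at 21.8, 20.1, 14.8 and 5.18 with aPD1ab, so all 8 aged libraries were below the young ones. Slc22a8 was at 16.4 to 18.2 in young mice, at 21.9 to 24.5 in aged IgG2a mice and at 18.6, 22.9, 19.1 and 22.2 with aPD1ab, so all 8 were above. The count of Slc22a6 over that of Slc22a8 was 1.43 to 1.55 in the 5 young libraries, 0.71 to 0.952 with IgG2a, and 1.17, 0.880, 0.773 and 0.233 with aPD1ab. This ratio was chosen after its values were seen and is a description without a test. In the fit scaled to tubule markers neither gene passed in any of the 3 comparisons.

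Of the cation carriers, Slc22a2 was at 6.01 to 6.69 per 1000 marker counts in young mice, at 3.24 to 6.14 with IgG2a and at 2.49 to 6.64 with aPD1ab. Slc47a1 stayed between 13.9 and 18.3 in all 13 libraries.

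Kap, an abundant tubule transcript, made up 32.2% to 39.2% of the marker counts in young, 22.6% to 32.2% in aged IgG2a and 6.40% to 36.8% in aged aPD1ab libraries. The lowest share, 6.40%, was that of aged aPD1ab replicate 4. With Kap left out of the sum, an alternative chosen after seeing the data, Slco1a1 was at 7.73 to 16.5, 2.89 to 4.16 and 0.158 to 4.65 per 1000 counts in the 3 groups. Slc22a6 was at 36.3 to 42.3, 20.1 to 33.5 and 5.53 to 32.3. The aged libraries stayed below the young ones for both genes. For Slc22a8 the young range of 24.4 to 29.2 then overlapped both aged ranges (28.3 to 35.2 and 23.7 to 33.3).

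**Figure D3:**
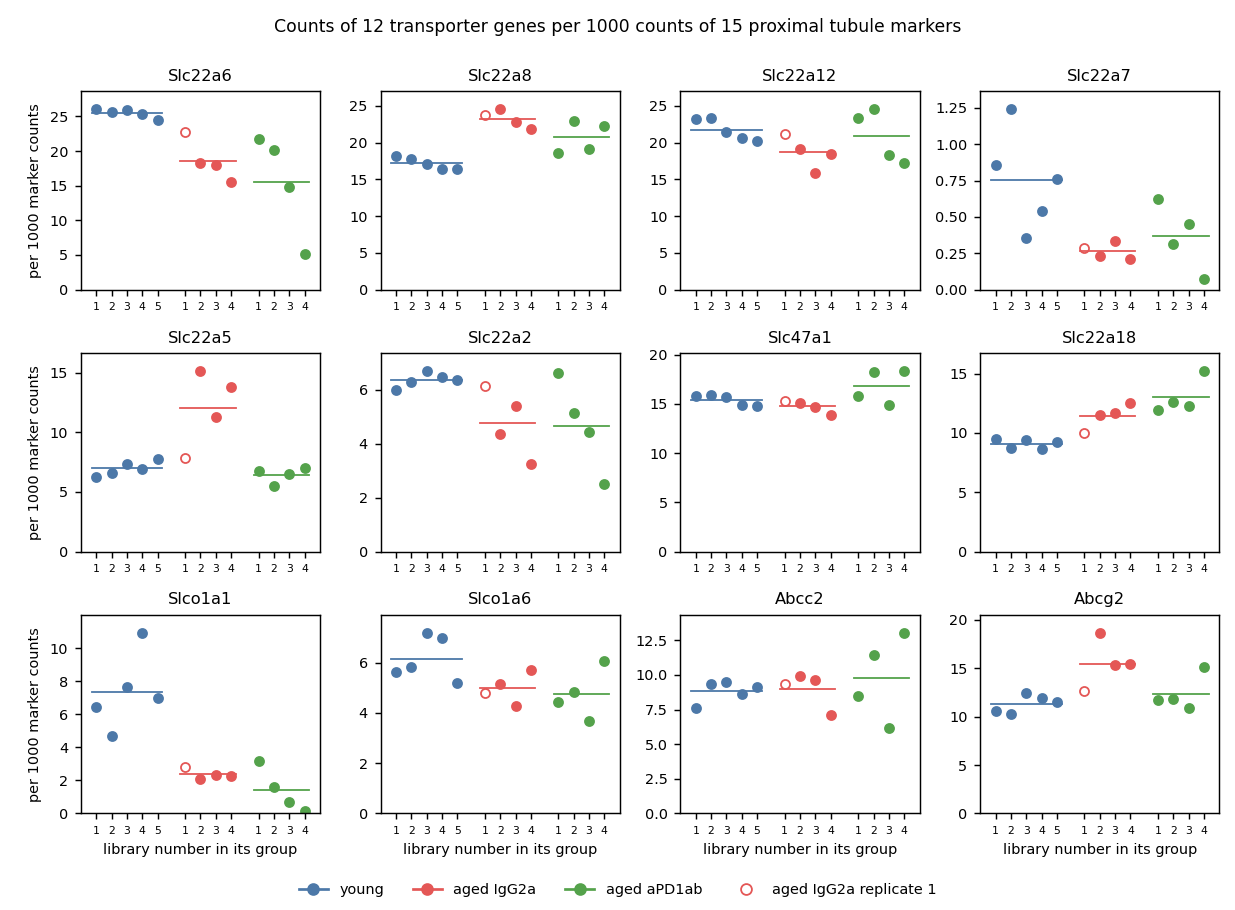
Each point is the count of a transporter gene per 1000 counts of 15 proximal tubule markers (y axis from 0) in 1 library (x axis: number within its group), with the group mean as a line. Slco1a1 and Slc22a6 are below all young libraries in the 8 aged ones, Slc22a8 is above, and Slc47a1 stays between 13.9 and 18.3.

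Aged aPD1ab replicate 4 held the lowest Slco1a1 of all 13 libraries (2.02 CPM) and, within its group, the lowest Slc22a6 (71.0 CPM), Slc22a2 (34.2 CPM) and Slc22a7 (1.04 CPM), while its Slc22a8 (304 CPM) and Abcc2 (178 CPM) were the second highest there. Slc22a29 was at 10.9 CPM in that library and at 0.245 to 6.06 CPM in the others. Its near copy Slc22a27 makes that value uncertain, although Slc22a27 itself had 3 counts at most. Aged aPD1ab replicate 4 also held the lowest share of Kap in the marker counts (6.40%). The labels name no difference for this library.

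The partners of the transporters were read from a list of 24 scaffold proteins and other solute carriers. In aged IgG2a mice 12 of the 22 tested fell and none rose, and none passed with aPD1ab against IgG2a with all libraries. Without aged IgG2a replicate 1 these counts were 14 lower and 1 higher, and 12 higher and 2 lower. The shares of all genes in these fits are those given above beside the members. Pdzk1, the scaffold that holds apical carriers in the brush border, was at 138 CPM on average in young, 33.3 in aged IgG2a and 147 in aged aPD1ab mice, with a log2 fold change of -1.99 against young (adjusted p = 0.0230). Slc13a3, which supplies the dicarboxylates that the OATs exchange, changed by -1.66 (adjusted p = 0.0285), and the urate and phosphate carriers Slc17a1 and Slc17a3 by -1.90 and -2.20. The equilibrative nucleoside carriers Slc29a1, Slc29a2 and Slc29a3 did not pass in either of these comparisons.

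Among 16 transcription factors known to act on transporter genes, 15 were tested, of which 4 fell and 3 rose in aged IgG2a mice. Of all genes tested, 8.38% fell and 9.05% rose. Hnf4a (-1.62, adjusted p = 0.0422), the bile acid receptor Nr1h4 (-1.48, adjusted p = 0.0131) and Ppara (-1.51, adjusted p = 0.0263) were among the lower ones. Nr1h3 (LXR alpha), an activator of Abcg1, rose by 1.02 on the log2 scale (adjusted p = 0.00713), as did Nfe2l2 (0.70) and Cebpb (1.76). Nr1h3 was also higher with aPD1ab than in young mice (1.17, adjusted p = 0.0117), at 14.5 CPM in young, 28.0 in aged IgG2a and 32.3 in aged aPD1ab mice on average. In that comparison Cebpb (1.83, adjusted p = 0.00241) and Esrra (0.56, adjusted p = 0.00512) were higher too. Ppara (-0.73, adjusted p = 0.0264) and Ahr (-0.72, adjusted p = 0.0129) were lower. Of all genes in it, 12.4% were higher and 9.97% lower. Scaled to tubule markers, 9 of the 15 were higher in aged IgG2a mice and none was lower, against 93.4% and 0.119% of all genes.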

How the data were processed

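Podocyte-fraction RNA was sequenced from TruSeq libraries. Per the labels, the deposited counts are whole reads per gene, made by the authors with HISAT2 and featureCounts on mm10 (GRCm38), as the submitters' processing notes name them. Versions and strand setting are not given in the sources used here. Symbols came from GENCODE M21, which matched 45229 of 46078 gene IDs. The column numbers match no number in the sample labels. Columns were tied to groups by a plot of the study that prints these numbers by group, and 2 columns not printed there were not used.

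The libraries of 2 groups at a time entered edgeR 4.0.16 in R 4.3.3 (TMM, filterByExpr, robust quasi-likelihood test, Benjamini-Hochberg adjustment over all genes tested), with a call at adjusted p under 0.05. The steps were tested on simulated data with the same spread setting for every gene and no outlying library. That check does not cover a group with a library like aged IgG2a replicate 1. Alternatives were DESeq2 1.42.0, limma 3.58.1 voom, RLE factors, no filter, 1 fit of all groups, a 2-fold threshold, scaling to 15 proximal tubule markers and leaving out each library. Members, gene lists and tests were chosen with earlier results of these data known. Named were the 3 genes with the highest level per length in each role and, per comparison, the 3 with the smallest p in each direction, and other genes are given by range or count or as members of a counted group. Some members are not reported here by name. Coding sequences were compared in place of proteins.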

Additional observations from a re-analysis of the deposited data

Results flagged for a closer look

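In groups of 4 or 5 libraries, 20 of 93 sets of CPM values held 1 library far from the rest by Dixon's test, which chance alone gives in about 1 of 20 groups. The genes share libraries, so these sets are not independent.

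Aged IgG2a replicate 1 was the distant library in 12 of them, each time above the others. It was at 221 CPM for Slc22a12, 237 for Slc22a6, 248 for Slc22a8, 159.8 for Slc47a1 and 64.0 for Slc22a2. It was at 81.3 CPM for Slc22a5, 105 for Slc22a18, 76.6 for Slc22a23, 50 for Slco1a6, 29.4 for Slco1a1, 97.7 for Abcc2 and 131 for Abcg2. The summed tubule markers of this library were at 10422 CPM, against 2092 to 3215 CPM in the other 3.

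Aged aPD1ab replicate 2 stood above its group for Slc22a12 (736 CPM), Slc22a17 (36.2 CPM) and Abcc9 (9.52 CPM), and aged aPD1ab replicate 1 for Abcg1 (57.8 CPM). Among young libraries, replicate 3 stood above for Slco1a6 (149 CPM) and Abcb10 (31.7 CPM), replicate 1 for Abcb4 (0.828 CPM) and replicate 2 for Slc22a19 (15 CPM).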

How the results depend on the processing

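Scaling to proximal tubule markers gave 23 higher and 3 lower members in aged IgG2a against young mice, 0 higher and 23 lower with aPD1ab against IgG2a, and 0 higher and 0 lower with aPD1ab against young mice. In the same order, 93.4% and 0.119%, 0.00644% and 87.1%, and 1.13% and 0.288% of all genes were higher and lower. Among named genes called with or without this scaling, it turned the sign in aged IgG2a against young mice for Slc22a5 (0.78), Slc22a4 (1.63), Slc22a18 (0.33), Slc22a23 (1.39), Abcb8 (1.67), Abcb10 (2.1), Abcc2 (0.03), Abcc9 (0.7) and Abcg2 (0.45). With aPD1ab against IgG2a it did so, by the same limit, for Slc22a4 (-1.37), Slc22a21 (-2.21), Slc22a23 (-1.34), Slc22a17 (-1.77), Abcb8 (-1.46), Abcb10 (-1.77) and Slco4a1 (-1.3). Outside the naming rule, genes given above as lower in aged IgG2a against young mice also turned. They were Slco3a1 (1.31), Slco2a1 (1.8), Slco4c1 (0.51) and Abcc6 (0.5). By construction this scaling measures genes against tubule RNA.

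In aged IgG2a against young mice, voom called 8 members higher, against 24.3% of all genes, and the 2-fold threshold 3. No share of all genes is given for that threshold. Leaving out 1 library gave 3 to 7 higher (3 without young replicate 3 or aged IgG2a replicate 2 or 3) and 5 to 33 lower. Of all genes, 1.6% to 22.1% were higher and 1.8% to 23.5% lower in those fits. With aPD1ab against IgG2a, DESeq2 called 14 higher and 3 lower, voom 23 and 9 (20.9% and 18.8% of all genes), and 1 fit of all groups 16 and 3 (11.4% and 6.14%). Leaving out 1 library gave 0 to 25 higher and 0 to 7 lower, with calls made without aged IgG2a replicate 1. There 17.1% of all genes were higher and 13.2% lower. With aPD1ab against young mice, DESeq2 called 4 lower and voom 10, each against 11.4% of all genes, and the 2-fold threshold 1. The 1 fit of all groups called 0 higher, against 9.13% of all genes, and the 2-fold threshold also 0. Leaving out 1 library gave 0 to 4 higher and 1 to 11 lower, against 8.19% to 13% and 6.32% to 10.7% of all genes. Apart from the tubule scaling, the causes of these moves were not tested. RLE factors moved no named gene across the threshold. The 18 members that passed no filter were too low to test at this depth. No paired analysis was possible because the count columns carry no number shared between groups.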
